A study of Mus musculus with 3 samples.

Results

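Genes of cholesterol and fatty acid synthesis were followed in the ovaries of mice given chemotherapy alone or chemotherapy and then adipose-derived stem cells (ADSC), which are mesenchymal cells cultured from fat. The gene set was given as 36 symbols: 18 enzymes of the sterol pathway, 5 proteins of cholesterol uptake, transport or storage, 4 SREBP transcription factors and regulators, and 9 enzymes of fatty acid synthesis, elongation or desaturation. Members were the array probes that carried one of these symbols, or an older synonym of it, as their name. Of the 36 genes, 35 were found among 19459 genes on the array, on 46 probes, with Msmo1 standing under its older name Sc4mol. Acat2, the cytosolic thiolase that opens the sterol pathway, was found under neither its symbol nor a synonym and was not analysed here.

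There were 4 groups of C57BL/6 mice. WT mice were untreated, and POF mice had received cyclophosphamide, an alkylating drug used here to model premature ovarian failure. ADSC-iv mice were POF mice that then received ADSC by vein, and ADSC-ovary mice were POF mice that received ADSC injected into both ovaries. All 3 treated groups thus share the cyclophosphamide treatment, and ovaries were taken 1 week after treatment. On each of 3 spotted two-colour arrays, 1 per treated group, Cy5 labelled the amplified RNA of treated ovaries and Cy3 that of WT ovaries. The dyes were not exchanged. The number of animals behind an array, and whether the WT RNA was the same on each, are not stated in the labels. No difference between groups therefore has a replicate check and no p-value is given. The median SD between different probes of 1 gene was 0.145 to 0.165 log2 units depending on the comparison. It holds probe differences on the same arrays and no differences between animals. The WT channel shifted between arrays with a larger SD over measured genes, 0.25 to 0.27.

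Cells make cholesterol from acetyl-CoA through mevalonate, farnesyl pyrophosphate (FPP), squalene and lanosterol. When sterols in the endoplasmic reticulum are low, the escort protein SCAP carries the SREBP transcription factors to the Golgi, where they are cut and released to activate genes of sterol and fatty acid synthesis, and INSIG proteins hold them back when sterols are plentiful. In the ovary, cholesterol is the starting material of steroid hormones in theca, granulosa and luteal cells, which also take it up from lipoproteins and store it as esters. Oocytes make little cholesterol of their own and depend on the surrounding cumulus cells for it.

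SREBP sites of such genes can lie close to the start of transcription, next to boxes bound by NF-Y and Sp1. The stretches below mark letters of these 2 boxes, and of a sterol element in Hmgcs1 alone. They come from members at the low end relative to WT on the ADSC-iv array. Whether the letters have a part in those values was not tested. A table of RefSeq promoters (mouse build GRCm38.p6, 250 bases before to 50 after each start) held 27 of the 36 members. Capitals mark the NF-Y box CCAAT, the Sp1 box GGGCGG and a sterol element TCACNCCAC, each on either strand, in the 150 bases before the start, written 5′ to 3′ in the direction of the gene. Fads2 is shown as a member with none of these letters in that stretch. Npc2 and Srebf2, which are not shown, also hold both the NF-Y and the Sp1 box in that stretch. Between ADSC-iv and POF their log2 ratios differed by 0.27 and 0.29.
Hmgcs1 (chr13:119690201-119690350, plus strand): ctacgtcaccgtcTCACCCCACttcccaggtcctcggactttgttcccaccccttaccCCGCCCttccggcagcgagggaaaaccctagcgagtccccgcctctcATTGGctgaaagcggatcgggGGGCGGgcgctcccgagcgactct
Mvk (chr5:114444119-114444268, plus strand): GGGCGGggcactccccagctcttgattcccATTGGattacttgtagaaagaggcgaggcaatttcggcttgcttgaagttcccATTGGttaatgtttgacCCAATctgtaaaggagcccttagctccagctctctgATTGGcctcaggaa
Cyp51 (chr5:4104698-4104847, minus strand): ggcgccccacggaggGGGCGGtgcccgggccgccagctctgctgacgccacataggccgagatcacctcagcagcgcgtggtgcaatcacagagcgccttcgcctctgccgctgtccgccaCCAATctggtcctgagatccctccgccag
Tm7sf2 (chr19:6067851-6068000, minus strand): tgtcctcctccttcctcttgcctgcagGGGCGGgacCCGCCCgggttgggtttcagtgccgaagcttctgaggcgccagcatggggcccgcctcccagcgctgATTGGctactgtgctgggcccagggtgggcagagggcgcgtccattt
Msmo1 (chr8:64733579-64733728, minus strand): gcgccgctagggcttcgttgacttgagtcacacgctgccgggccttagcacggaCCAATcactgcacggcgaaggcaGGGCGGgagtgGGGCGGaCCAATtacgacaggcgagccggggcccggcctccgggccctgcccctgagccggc
Nsdhl (chrX:72918371-72918520, plus strand): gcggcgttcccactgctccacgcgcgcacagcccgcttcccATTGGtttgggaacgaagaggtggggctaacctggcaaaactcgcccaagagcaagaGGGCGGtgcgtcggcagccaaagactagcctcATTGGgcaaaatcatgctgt
Fads2 (chr19:10101504-10101653, minus strand): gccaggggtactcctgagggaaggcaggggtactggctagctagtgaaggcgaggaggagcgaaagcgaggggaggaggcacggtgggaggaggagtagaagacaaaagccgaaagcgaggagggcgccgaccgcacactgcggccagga

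The NF-Y box stood in the 300-base windows of 14 of 15 sterol enzymes listed, and in 41.1% of all 27025 genes of the table. The Sp1 box likewise stood in 14 of 15, against 38.2% of all genes. Both boxes occurred together in 13 of 15 (86.7%) sterol enzymes and in 14.5% of all genes. The sterol promoters were richer in G and C (median 60.3%, from 45.3% to 71%) than all promoters of the table (median 52.8%). Of 6 fatty acid enzymes with a promoter, 3 held the NF-Y box and 2 the Sp1 box. Of the 6 remaining members with a promoter (uptake, transport, storage and SREBP regulators), 5 held the NF-Y box and 6 the Sp1 box. The sterol element was found in Hmgcs1 alone, and in 1.44% of all genes. Boxes of different kinds did not overlap in any member. These are matches of letters in a fixed window and say nothing of what binds there.

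On the ADSC-iv array the pathway was lower than on the POF array almost throughout. All 17 sterol enzymes and all 9 fatty acid enzymes had lower ratios to WT on the ADSC-iv array, with median differences of -0.56 and -0.54 log2 units. Below 0 were 32 of 35 members, while 50.6% of the 9168 genes measured on both arrays were below 0 and their median was close to 0. Squalene epoxidase Sqle and the fatty acid desaturase Fads2 were at least 2-fold lower (2 of 35), against 0.349% of all measured genes. No member was at least 2-fold higher, against 0.513%. Of the 35 members, 15 lay under the 5th percentile of all genes (-0.51) and none above the 95th (0.55). The enzymes from squalene to cholesterol had a median of -0.71 and those from acetyl-CoA to FPP one of -0.21.

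After injection into the ovary the sterol enzymes stood near the POF array. The median difference from POF was 0.05 over the 17 sterol enzymes, of which 8 were below 0, against 49.8% of all measured genes. The 9 fatty acid enzymes were all below 0, with a median of -0.37. Their median shift from the POF array was -0.07 in Cy5 (6 of 9 below 0) and -0.01 in Cy3. In the authors' values 7 of the 9 differences were below 0, and with median centring 8 were. No member was 2-fold apart from POF either way, against 0.65% higher and 0.154% lower among all genes. Set directly against ADSC-iv, 16 of 17 sterol enzymes were higher on the ADSC-ovary array, with a median of 0.49, whereas 49.6% of all genes were below 0. The fatty acid median in this comparison was 0.26, with 7 of 9 higher, and again no member passed 2-fold (0.634% of all genes were 2-fold higher and 0.328% lower). With median centring and in the authors' values 1 member was 2-fold higher, and with plain background subtraction 2 were. Of all genes, 60 of 9457, 379 of 9457 and 238 of 9440 were 2-fold higher under these settings. These comparisons share arrays (the POF array enters the first 2, and the ADSC-iv array the first and the last), so they are not independent of each other.

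**Figure D1:**
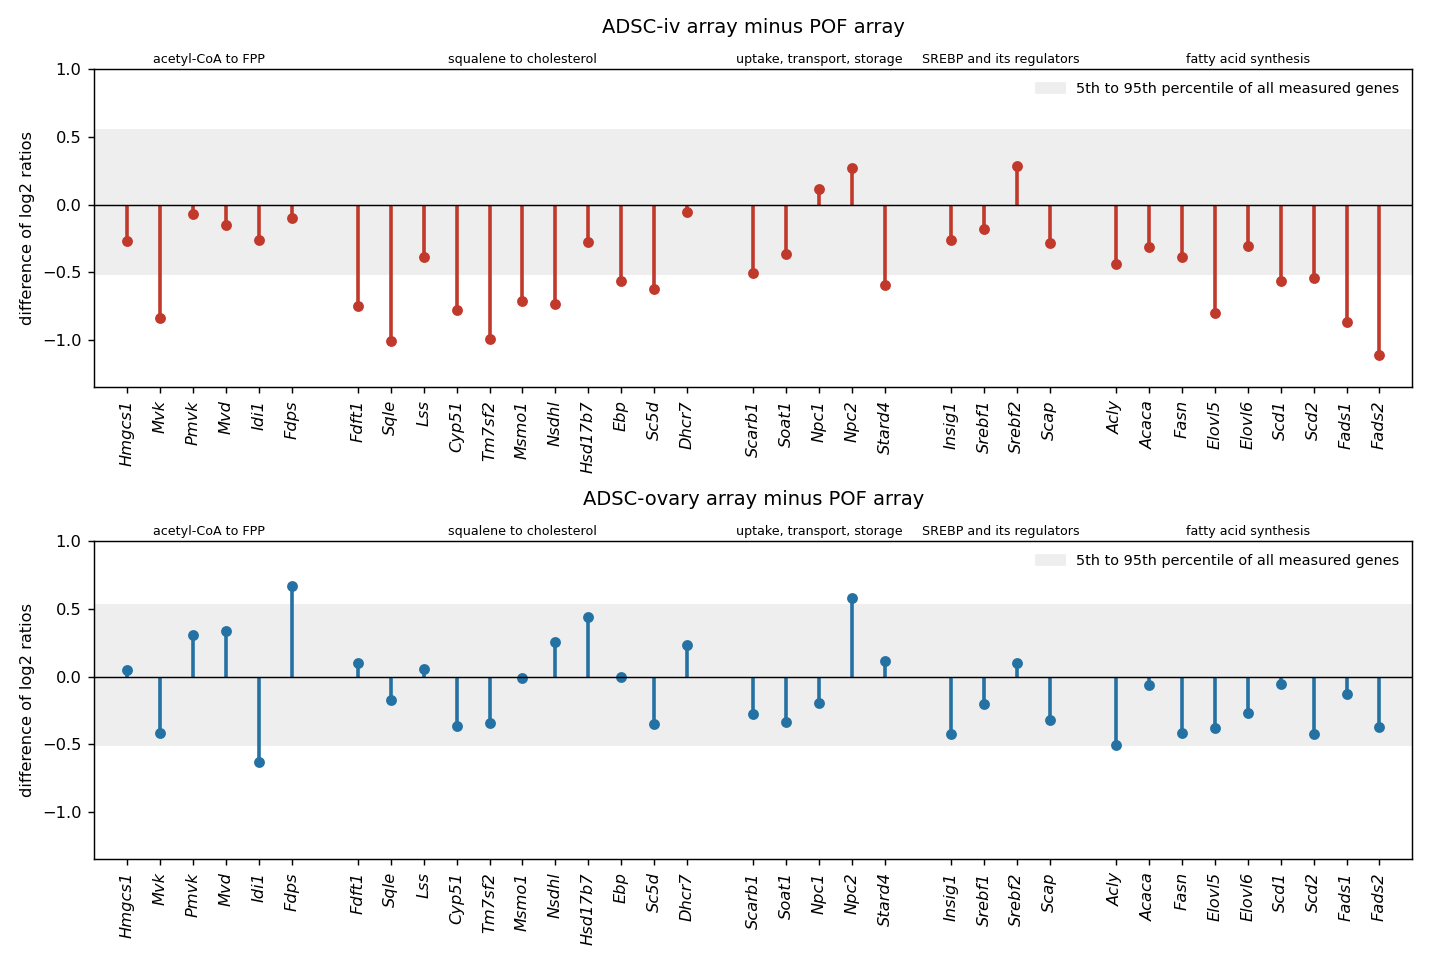
Difference of log2 ratios (vertical axis, log2 units) from the POF array for each of 35 genes, grouped by pathway step, on the ADSC-iv array (top) and the ADSC-ovary array (bottom), with the 5th to 95th percentile of all measured genes in grey. On the ADSC-iv array 15 genes lie under the grey band and 32 lie below 0; on the ADSC-ovary array the sterol genes lie on both sides of 0 and all 9 fatty acid genes lie below it.

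Relative to WT the level of the family depends on how the arrays are scaled. On the POF array the sterol median was -0.17, with 14 of 17 below 0 (48.3% of all genes were), but centring each array on its median in place of loess put it at 0.40 with 6 of 17 below 0, and the median of all genes at 0.33. On the ADSC-iv array the sterol median was -0.82 with all 17 below 0 (49.6% of all genes were), and it stayed below 0 under median centring, at -0.45, although the all-gene median was then 0.18. The ADSC-ovary sterol median of -0.20, with 13 of 17 below 0 (49.8% of all genes), became 0.17 under median centring, with 5 of 17 below 0 and an all-gene median of 0.15. The fatty acid medians were 0.01, -0.61 and -0.27 on the POF, ADSC-iv and ADSC-ovary arrays, and 0.41, -0.20 and 0.12 under median centring. The sterol and fatty acid medians of the ADSC-iv array were thus below 0 under both scalings. No member was 2-fold from WT on the POF array, where 1.16% of all genes were 2-fold higher and 0.928% lower. On the ADSC-iv array 3 of 35 were 2-fold lower and none higher, against 0.551% and 2% of all genes. With median centring 0 members were 2-fold lower, with plain background subtraction 7, and in the authors' values 6. Of all genes, 28 of 10156, 207 of 10128 and 196 of 10156 were 2-fold lower under these settings. On the ADSC-ovary array 1 of 35 was 2-fold lower and none higher, against 0.352% and 2.68%. With median centring Npc2 was 2-fold higher there (1.17) and no member lower, while 442 of 9942 genes were higher and 22 lower.

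**Figure D2:**
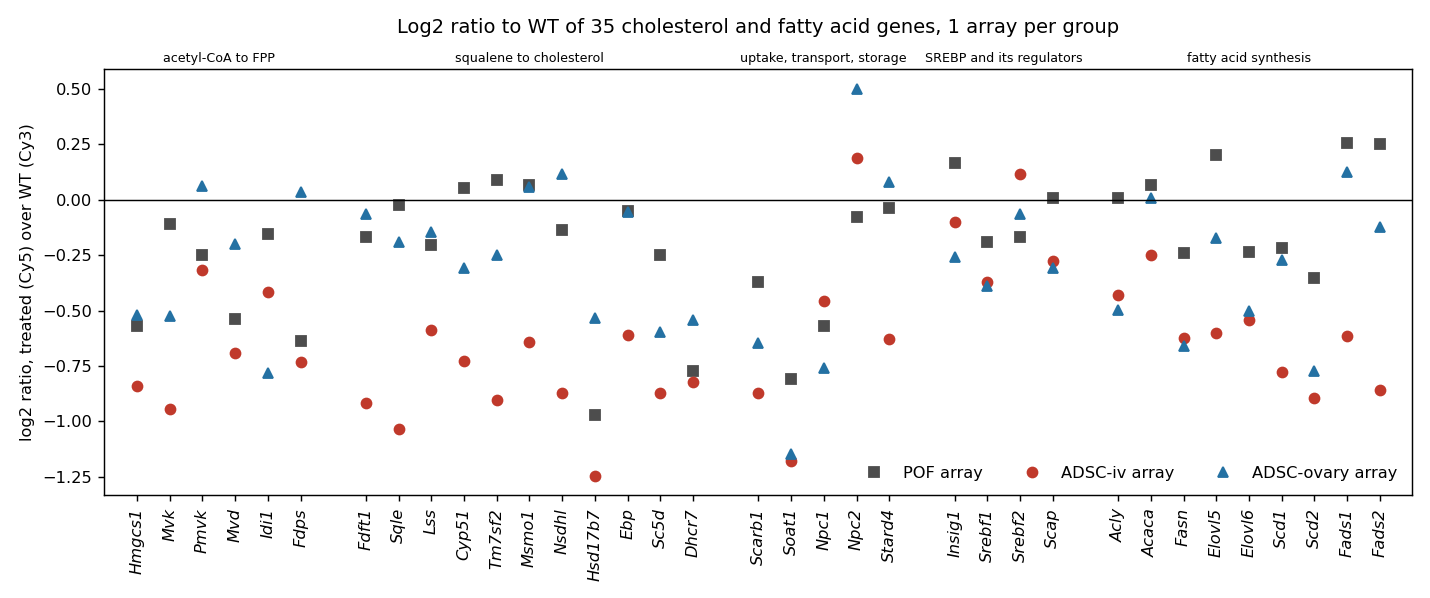
Log2 ratio of the treated channel (Cy5) over the WT channel (Cy3) for 35 genes on each of 3 arrays, 1 array per group, loess normalized and grouped by pathway step. The ADSC-iv values (circles) are the lowest of the 3 for all 11 genes from squalene to cholesterol, while Soat1 and Hsd17b7 are low on every array (with median centring Hsd17b7 is at 0.05 on the ADSC-ovary array).

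The first steps of the pathway, from acetyl-CoA to FPP, varied among themselves. Mevalonate kinase Mvk, which phosphorylates mevalonate, had log2 ratios to WT of -0.11 (POF), -0.95 (ADSC-iv) and -0.53 (ADSC-ovary). It was thus 1.79-fold lower on the ADSC-iv than on the POF array, the largest difference in this step. Its Cy5 intensity was 11.90, 11.10 and 11.64 log2 units on these arrays, and its Cy3 (WT) intensity was 12.01, 12.05 and 12.17, so nearly all of the difference lay in the treated channel.

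The isomerase Idi1, which makes the reactive isoprenoid unit, behaved differently from its neighbours. Its ratios were -0.16 (POF), -0.41 (ADSC-iv) and -0.78 (ADSC-ovary), which made it the one sterol enzyme that was lower on the ADSC-ovary than on the ADSC-iv array (-0.37). Farnesyl diphosphate synthase Fdps, which supplies FPP for sterols and for protein prenylation, had ratios of -0.63, -0.73 and 0.04. It was 1.59-fold higher on the ADSC-ovary than on the POF array, the highest of all members there, and its 2 probes gave 0.66 and 0.68. From the POF to the ADSC-iv array the treated and WT channels of Fdps both shifted upwards, by 0.59 and 0.69, and the ratios differed by -0.10.

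Among the other enzymes of the step, Mvd and Pmvk differed between ADSC-iv and POF by less than the median SD between probes (0.16). Hmgcs1 differed by -0.27. Diphosphomevalonate decarboxylase Mvd had ratios of -0.54, -0.69 and -0.20, and phosphomevalonate kinase Pmvk had -0.25, -0.32 and 0.06. Their ADSC-iv differences from POF were -0.15 and -0.07, and those of ADSC-ovary were 0.34 and 0.31. HMG-CoA synthase Hmgcs1, whose promoter above carries the sterol element, had ratios of -0.57, -0.84 and -0.52. Its 2 probes differed from POF by -0.34 and -0.20 on the ADSC-iv array, and by 0.26 and -0.16 on the ADSC-ovary array. The first probe was not above background in either channel on any array. The second had ratios of -0.59, -0.79 and -0.76.

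Between ADSC-iv and POF, the step from squalene to cholesterol held the lowest values of the sterol pathway. Squalene synthase Fdft1, which commits FPP to sterols, had ratios of -0.17, -0.92 and -0.06, here and below in the order POF, ADSC-iv, ADSC-ovary. Squalene epoxidase Sqle, an oxygen-dependent control point of the pathway, had ratios of -0.02, -1.04 and -0.19. Sqle was thus 2.02-fold lower on the ADSC-iv than on the POF array, and 1.80-fold higher on the ADSC-ovary than on the ADSC-iv array. In these loess-normalized values both genes were close to WT on the POF and ADSC-ovary arrays and low on the ADSC-iv array alone.

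In the separate channels Sqle measured 12.50, 11.76 and 12.42 log2 units in Cy5 and 12.52, 12.80 and 12.62 in Cy3. From the POF to the ADSC-iv array the treated channel shifted by -0.74 and the WT channel by 0.27. Lanosterol synthase Lss, which closes the ring system, had ratios of -0.20, -0.59 and -0.15, and its 3 probes differed from POF on the ADSC-iv array by -0.37, -0.33 and -0.46. The second Lss probe was not above background in either channel.

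**Figure D3:**
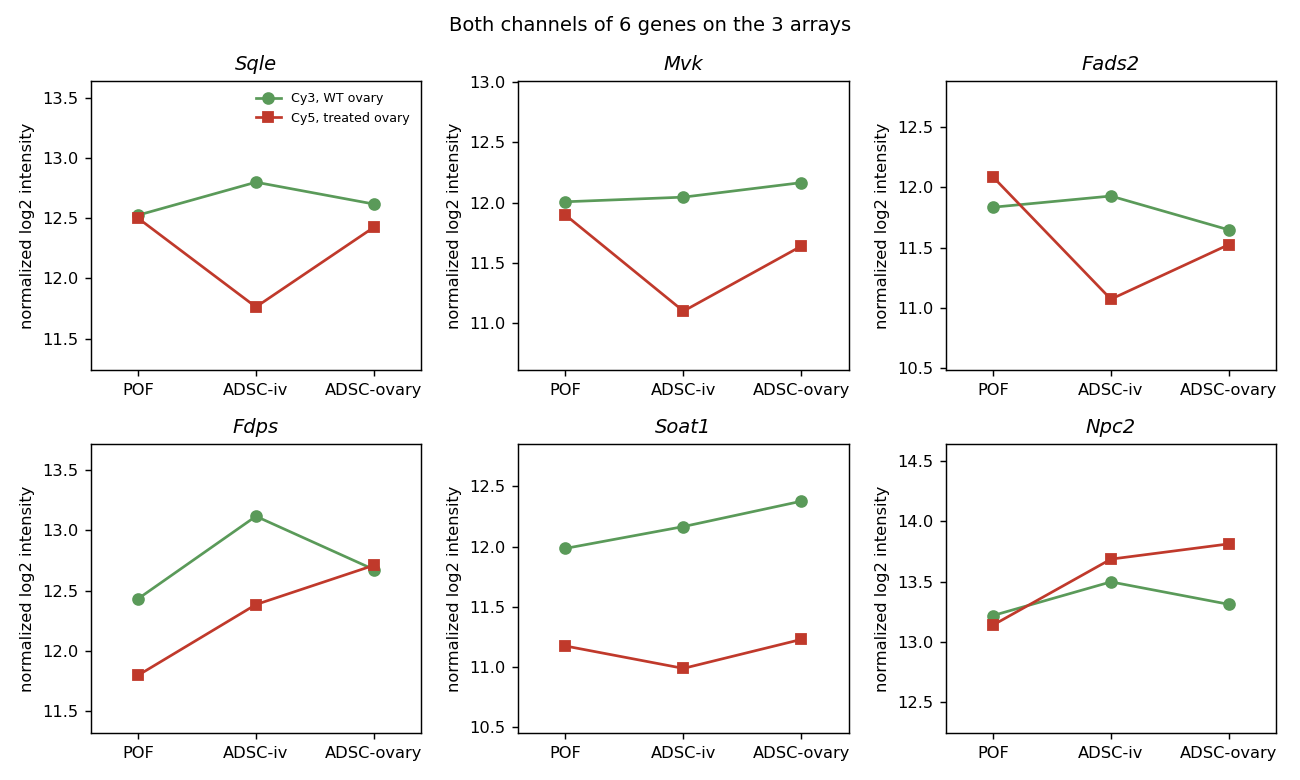
Normalized log2 intensity (vertical axis) of the treated channel (Cy5, squares) and the WT channel (Cy3, circles) on the 3 arrays for 6 genes, each panel spanning the same range of 2.4 log2 units. Sqle, Mvk and Fads2 dip in Cy5 but not in Cy3 on the ADSC-iv array, Fdps is above its POF value in both channels there, Soat1 is lower in Cy5 than in Cy3 on every array, and Npc2 is higher in Cy5 than in Cy3 on both ADSC arrays.

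The enzymes that remodel lanosterol were likewise lowest on the ADSC-iv array. Cyp51, the lanosterol demethylase, had ratios of 0.05, -0.73 and -0.31, and the sterol reductase Tm7sf2 had 0.09, -0.90 and -0.25. Tm7sf2 was 1.99-fold lower on the ADSC-iv than on the POF array, with -0.90 and -1.09 at its 2 probes. Msmo1, the C4-methylsterol oxidase, had 0.07, -0.64 and 0.06, and Nsdhl, which takes the next step of C4-demethylation, had -0.14, -0.87 and 0.12. Nsdhl was 1.99-fold higher on the ADSC-ovary than on the ADSC-iv array, the largest member value of that comparison. Of the promoters shown above, those of Cyp51, Tm7sf2, Msmo1 and Nsdhl all hold both boxes. Over the whole promoter window so do 13 of 15 sterol enzymes, so holding both boxes does not set these genes apart. Mvd, Idi1, Hsd17b7, Lss and Ebp, which are not shown, also hold both in the shown stretch. Between ADSC-iv and POF they differed by -0.15, -0.26, -0.27, -0.39 and -0.56. A link between the boxes and these values was not tested.

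Of the last enzymes of the pathway, Ebp (a sterol isomerase) had ratios of -0.05, -0.61 and -0.05, and Sc5d (a sterol desaturase) had -0.25, -0.87 and -0.60. Dhcr7, which performs the last reduction to cholesterol in one branch, had ratios of -0.77, -0.82 and -0.54. It was below WT on all arrays and differed by only -0.05 between ADSC-iv and POF, with its 2 probes on opposite sides of 0 (-0.25 and 0.15).

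Hsd17b7, which acts both as a ketosteroid reductase of this pathway and in making estradiol in luteal cells, had the lowest ratio of all members on the POF array. Its ratios were -0.97, -1.25 and -0.53, so that it was 1.96-fold lower than WT on the POF array and 2.37-fold lower on the ADSC-iv array. Its differences from POF were smaller (-0.27 for ADSC-iv and 0.44 for ADSC-ovary). In the treated channel it measured 12.76, 12.67 and 12.88, and in the WT channel 13.73, 13.92 and 13.42. The WT channel of the ADSC-ovary array, which stood -0.31 from the POF array, therefore made up most of the 0.44.

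Among proteins that take up, move or store cholesterol, 3 of 5 were lower on the ADSC-iv than on the POF array, a share near that of all measured genes (50.6%). Soat1, which esterifies cholesterol for storage, was low on every array, with ratios of -0.81, -1.18 and -1.15. It was 2.26-fold below WT on the ADSC-iv array and 2.21-fold below WT on the ADSC-ovary array, and differed by 0.03 between these. Scarb1, the receptor for high-density lipoprotein that supplies steroid-making cells, had ratios of -0.37, -0.87 and -0.65.

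Stard4, a carrier that moves cholesterol between membranes, had ratios of -0.04, -0.63 and 0.08, so it too was low on the ADSC-iv array alone. Its shift from the POF to the ADSC-iv array was -0.86 in Cy5 and -0.27 in Cy3. Npc1 and Npc2, which pass cholesterol out of late endosomes and lysosomes one after the other, differed from each other. Npc1 had ratios of -0.57, -0.46 and -0.76, and Npc2 had -0.08, 0.19 and 0.50. Npc2 was 1.50-fold higher on the ADSC-ovary than on the POF array, and it and Fdps lay above the 95th percentile of all genes in that comparison (2 of 35). Idi1 and Acly lay under the 5th (also 2 of 35), so the members' shares beyond these percentiles are near those of all genes.

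The transcription factors and their regulators all lay within the 5th to 95th percentile of all genes on the ADSC-iv array relative to POF. Srebf2, the SREBP that chiefly drives sterol genes, had ratios of -0.17, 0.12 and -0.07, and its difference of 0.29 between ADSC-iv and POF was the highest of all members. Srebf1, the SREBP that chiefly drives fatty acid genes, had -0.19, -0.37 and -0.39. For Srebf2 the treated channel shifted by -0.02 and the WT channel by -0.31, so its difference lay on the WT side. SCAP, encoded by Scap, had ratios of 0.01, -0.28 and -0.31. Insig1, which retains the complex and is itself an SREBP target, had 0.17, -0.10 and -0.26. The 4 genes differed from POF by -0.29 to 0.29 on the ADSC-iv array and by -0.42 to 0.10 on the ADSC-ovary array.

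The fatty acid genes also differed among themselves. Acly, which makes cytosolic acetyl-CoA from citrate, had ratios of 0.01, -0.43 and -0.50, and Fasn, the synthase of palmitate, had -0.24, -0.62 and -0.66. Both were lower than POF on both ADSC arrays, and their values on the latter differed by -0.06 and -0.03. Elovl6, which extends palmitate, was also lower than POF on both, with -0.23, -0.54 and -0.50. From the POF to the ADSC-ovary array its Cy5 shifted by 0.07 and its Cy3 by 0.34, so that difference lay on the WT side.

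The acetyl-CoA carboxylase Acaca was measured by 4 probes, of which 3 were not above background in either channel on any array. Its mean ratios were 0.07, -0.25 and 0.01, whereas the probe above background had -0.49, -0.91 and -0.59. The difference between ADSC-iv and POF was -0.31 for the mean and -0.42 for that probe.

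The desaturases Fads1 and Fads2, which introduce double bonds into polyunsaturated fatty acids, were the lowest fatty acid genes between ADSC-iv and POF. Fads2 had ratios of 0.25, -0.86 and -0.12, and was 2.16-fold lower on the ADSC-iv than on the POF array. Its Cy5 intensity was 12.09, 11.07 and 11.53 log2 units and its Cy3 intensity 11.84, 11.93 and 11.65. Between the POF and ADSC-iv arrays the treated channel shifted by -1.02 and the WT channel by 0.09.

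Fads1 had ratios of 0.25, -0.61 and 0.12, and its 2 probes gave -0.98 and -0.76 between ADSC-iv and POF. Both desaturases were above WT on the POF array and below it on the ADSC-iv array. With median centring they were at 0.89 and 0.76 on the POF array and at -0.09 and -0.55 on the ADSC-iv array. Elovl5, which extends polyunsaturated chains, had 0.20, -0.60 and -0.17. Of its difference of -0.80 between ADSC-iv and POF, only -0.17 came from Cy5, and the Cy3 shift was 0.63.

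The stearoyl-CoA desaturases Scd1 and Scd2, which make oleate, differed from each other on the ADSC-ovary array. Scd1 had ratios of -0.22, -0.78 and -0.27, and Scd2 had -0.35, -0.89 and -0.77. After injection into the ovary Scd1 thus differed from POF by -0.05 and Scd2 by -0.42. On the ADSC-iv array they differed from POF by -0.56 and -0.54.

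Because every difference between treated groups is a difference of 2 ratios, the WT channel enters it as well. Between the POF and ADSC-iv arrays, the median shift of the sterol enzymes was -0.38 in Cy5 and 0.19 in Cy3, and that of the fatty acid enzymes was -0.35 and 0.09. Over all members, Cy5 was lower for 31 of 35 and Cy3 higher for 25 of 35, and the Cy5 shift was the larger of the 2 in 28 of 35. Over the 9168 measured genes both channels had medians near 0 (-0.02 in each) and SDs of 0.38 (Cy5) and 0.25 (Cy3). The 28 of 35 was not set against the share of all genes. With the wider spread of Cy5 over all genes, it cannot be read as particular to the members. Between ADSC-iv and ADSC-ovary the sterol enzymes shifted by a median of 0.34 in Cy5 and -0.10 in Cy3. Whether the WT shifts come from different WT RNA or from the arrays cannot be told apart with these samples.

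**Figure D4:**
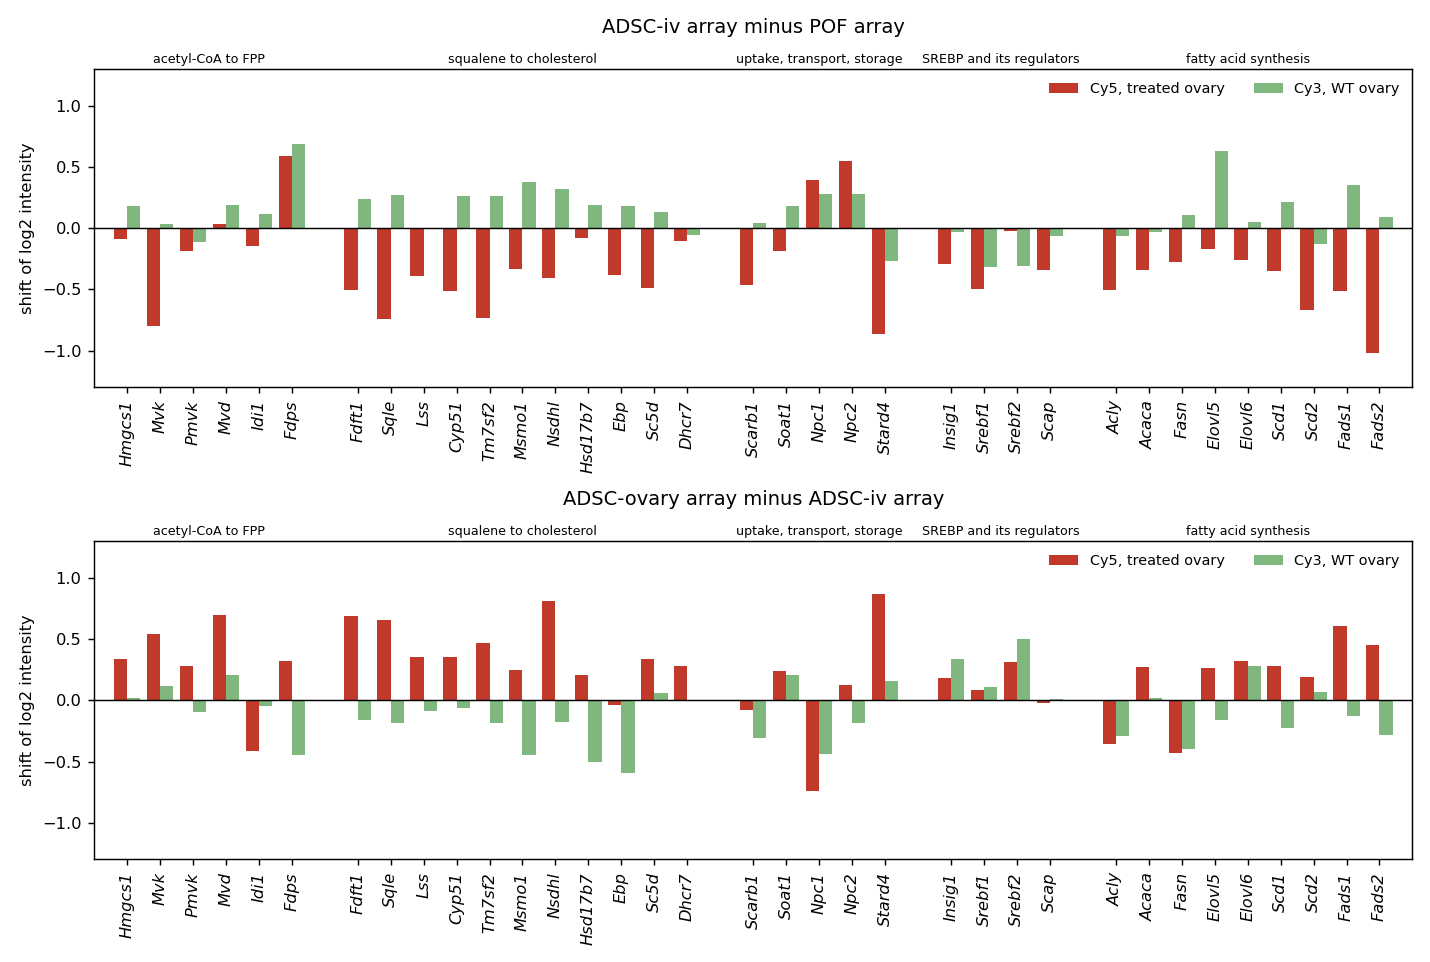
Shift of normalized log2 intensity (vertical axis, bars from 0) in the treated channel (Cy5) and the WT channel (Cy3) for 35 genes, from the POF to the ADSC-iv array (top) and from the ADSC-iv to the ADSC-ovary array (bottom). In the top panel Cy5 lies below 0 for 31 genes and Cy3 above 0 for 25; the Cy5 bar minus the Cy3 bar is the difference of log2 ratios.

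Other genes of the pathway, taken from lists that were drawn up apart from the 36 members, gave smaller medians on the ADSC-iv array relative to POF. Of the other sterol synthesis genes, 5 of 7 measured were below 0 (median -0.11), including Erg28, a scaffold of the C4-demethylation complex, at -0.26, while the lamin B receptor Lbr, which also reduces sterols, was at 0.13. Of other genes of cholesterol traffic, 8 of 13 were below 0 (median -0.12), with the lysosomal lipase Lipa highest at 0.62 and the lipoprotein receptors Lrp1 and Lrp8 at -0.42 and -0.41. Of other genes of SREBP control, 6 of 10 were below 0 (median -0.05), among which the NF-Y subunit Nfyb was at 0.45, Sp1 at -0.30 and the sterol-regulated ubiquitin ligase Rnf139 at -0.40. The shares of the traffic and control lists below 0 are near the 50.6% of all measured genes. Of other fatty acid genes, 12 of 15 were below 0 (median -0.14). The lowest of these were the elongase Elovl1 (-0.79), malic enzyme Me1 (-0.77), and Hsd17b12 and Elovl7 (both -0.68), which act in elongation. Elovl7 was dim: its Cy3 on the POF array and its Cy5 on the ADSC-iv array were not above background. It shifted by -0.25 in Cy5 and 0.43 in Cy3. No measured gene of these 4 lists was 2-fold apart from POF.

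Markers of several cell types also differed between the arrays, and fewer cells of a type cannot be told apart from less RNA per cell in whole ovaries. Of 10 ovary markers, 7 to 9 were above background in each treated channel. Amh, a granulosa hormone, was not above background in any channel, and the oocyte factor Bmp15 was so only in the ADSC-iv channel. Between ADSC-iv and POF, 8 of 9 measured theca and steroidogenic markers were below 0 (median -0.39), led by the androgen-producing Cyp17a1 at -1.91 and the electron donor Fdxr at -0.86, with the hedgehog target Gli1 at 0.96. For Gli1 the Cy5 shift was 0.30 and the Cy3 shift -0.67, and its Cy3 signal on the ADSC-iv array was not above background. The summed normalized intensity of the theca and steroidogenic list was 178352 on the POF, 122262 on the ADSC-iv and 142989 on the ADSC-ovary array. In the WT channels it was 150083 to 173082, with Ptch1 not above background in any channel. Those sums include Hsd3b1, whose Cy5 signal was at or near the scanner limit on every array; without it they were 125735, 73579 and 92171, and 99416 to 112880 in WT. Luteal markers, of which Hsd17b7 is one, had 8 of 10 below 0 (median -0.26), and the sums were 125613, 111400 and 130653, against 118221 to 131819 in WT. Granulosa markers had 6 of 9 below 0 (median -0.03), where 50.6% of all measured genes were below 0. Their sums were 102071, 95921 and 68991, against 154088 to 163002 in WT. Between ADSC-ovary and POF 7 of 9 granulosa markers were below 0 (median -0.38).

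Oocyte markers were higher on the ADSC-iv array in 11 of 11 (median 1.02), with summed intensities of 18940 (POF), 33076 (ADSC-iv) and 18890 (ADSC-ovary), against 19302.9 to 21151 in WT. Macrophage markers had 8 of 12 above 0 on the ADSC-iv array (median 0.26) and 12 of 12 on the ADSC-ovary array (median 0.76), with sums of 59947, 73011 and 93500 and 30481 to 33594 in WT. Adipocyte markers had 5 of 7 above 0 (median 0.05) on the ADSC-iv array and 4 of 6 (median 0.31) on the ADSC-ovary array, where the sum was 8486 against 5978 and 5662 on the POF and ADSC-iv arrays and 5415 to 6092 in WT. The adipocyte-defining Adipoq and Lep were not above background in any channel. Oviduct markers were lower than POF (5 of 6 below 0, median -0.49), with sums of 9332, 4566 and 4963 and 3533 to 3825 in WT, and Ovgp1 at -3.90, as were 3 of 3 red cell markers (median -1.21), with sums of 42818, 28750 and 43956 and 11645 to 17774 in WT. Of all measured genes, 50.6% were below 0 between ADSC-iv and POF and 49.8% between ADSC-ovary and POF. The part of these cell types in the values of the cholesterol and fatty acid genes was not tested.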

How the data were processed

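Per the labels' protocols, RNA was amplified linearly and labelled with Klenow enzyme; amplification can change the relative levels of transcripts. The series' design text names LuxScan 3.0. Per the file headers, the deposited scanner files give raw spot intensity (a median) with local background (median and SD) for each channel. Their deposited ratio column was the raw Cy5 over Cy3 spot median in 100% of spots (tolerance 1%) and was not used further. The authors' processed log2 ratios served as an alternative; their normalization is not given in the sources used here, and scale and direction were settled against background-subtracted log2 ratios (r of 0.966, 0.955 and 0.943, medians of the authors' values 0.04, 0.0082 and 0.02). A deposited flag of 100 or -100 has no stated meaning and was used in 1 alternative only.

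Background was corrected by normexp (offset 50), followed by loess on each array without control spots (limma 3.58.1, R 4.3.3) and a mean over the probes of a gene. Channels were then scaled between arrays by Aquantile. Above background means a spot median more than 2 SDs over the local background. A gene was measured if 1 compared channel reached this on every array involved, which 39.9% to 43.4% of 31920 probes did on an array in at least 1 channel. All 35 members did so in both channels on all arrays, through at least 1 probe. Of 19518 names, 14166 matched a current RefSeq symbol and 3898 a synonym, and 1454 were kept. Python 3.11.15, numpy 2.4.6, pandas 2.3.3 and matplotlib 3.10.9 were used, and the normalization was tested on simulated arrays.

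With 1 array per group no test was made, and genes at least 2-fold apart were counted. Every member may be named. From each other list up to 4 genes with the largest absolute difference between ADSC-iv and POF are named, less some that are not reported here. Members, lists and this rule were chosen with earlier results of these data known. Alternatives changed the normalization, the background correction, the source of values, the choice of probe, and the filters on dim spots and flags.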

Additional observations from a re-analysis of the deposited data

How the results depend on the processing

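No paired analysis was possible because each group has 1 array, and for the same reason no replicate could be left out. Under 10 alternatives each, the medians between ADSC-iv and POF ranged from -0.72 to -0.51 (sterol) and -0.68 to -0.51 (fatty acid), between ADSC-ovary and POF from -0.08 to 0.09 and -0.39 to -0.26, and between ADSC-ovary and ADSC-iv from 0.48 to 0.63 and 0.19 to 0.46, the last with plain background subtraction (main value 0.26). The sterol median between ADSC-ovary and POF crossed 0 within the probe spread. Ratios to WT moved most with median centring: the sterol medians became 0.40 (POF), -0.45 (ADSC-iv) and 0.17 (ADSC-ovary), and the fatty acid medians 0.41, -0.20 and 0.12. The fatty acid median on the POF array, 0.01, turned to -0.22 with plain subtraction, with the brightest probe, with a flag of 100, or with only probes above background (an alternative chosen after seeing the data). The last 3 also moved the ADSC-ovary value to -0.50. They leave out the dim probes of Acaca. No cause of the other changes was tested. Genes at least 2-fold higher and lower between ADSC-iv and POF numbered 47 and 32, but 239 and 341 in the authors' values, 162 and 201 with plain subtraction, 134 and 110 without a filter on dim spots, and 37 and 67 with median centring, which shifted all genes by -0.11. Between ADSC-ovary and POF they numbered 59 and 14, against 310 and 313, 199 and 164, 177 and 100, and 48 and 68. They were 52 and 9 without background correction, 37 and 8 with both channels above background, and 39 and 8 with a flag of 100. In the same order of settings (authors' values, subtraction, no filter, median centring), the counts were 571 and 224, 376 and 246, 146 and 132, and 264 and 30 for POF against WT (main 110 and 88). For ADSC-iv against WT (main 203 and 56) they were 664 and 196, 519 and 207, 236 and 92, and 433 and 28. For ADSC-ovary against WT (main 266 and 35) they were 728 and 153, 576 and 178, 322 and 79, and 442 and 22. For ADSC-ovary against ADSC-iv (main 60 and 31) they were 379 and 265, 238 and 157, 156 and 95, and 60 and 48. The brightest probe gave 123 and 135 for POF against WT, and both channels above background gave 69 and 71 there and 166 and 24 for ADSC-ovary against WT. Among members, 1 to 4 were 2-fold lower between ADSC-iv and POF over the alternatives, and 0 to 7 between ADSC-iv and WT. On the POF array against WT, 2 were 2-fold lower with plain subtraction and 1 in the authors' values (main 0), and between ADSC-ovary and POF 1 in the authors' values (main 0). No member at least 2-fold apart in the main values changed sign. Of all 35 members, 18 changed sign with median centring for POF against WT, 2 for ADSC-iv and 13 for ADSC-ovary. In the authors' values 8, 0 and 3 did. Between ADSC-iv and POF 1 did with median centring and 2 in the authors' values. Between ADSC-ovary and POF 4 and 5 did, and between ADSC-ovary and ADSC-iv 1 and 2. Between ADSC-iv and POF, Lss ranged from -1.44 (authors' values) to -0.32 and Acaca from -0.44 to 0.16. With plain subtraction Acaca was at -1.82 for ADSC-iv against WT (main -0.25) and at 2.39 for ADSC-ovary against ADSC-iv (main 0.26), and Lss was at -1.11 for ADSC-ovary against POF in the authors' values (main 0.05). Both have probes not above background; the cause was not tested.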
